A study of Mus musculus with 19 samples.

Results

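The genes followed here encode the enzymes and membrane proteins of the lysosome. They were chosen by symbol as a list of 37 genes, of which 35 had a row among the 20998 genes measured on every array, and Glb1 and Asah1 were not analysed here. The 35 genes comprised 8 cathepsins, 2 other proteases, 9 glycosidases, 3 sulfatases, 3 lipid hydrolases, 3 soluble cofactors and carriers, 6 membrane proteins and the transcription factor Tfeb. No cut-off on measured values was used to choose them, but they were chosen with earlier results of these data known.

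The lysosome is the acidic compartment in which cells break down material taken up from outside and worn parts of their own. Its hydrolases are made in the secretory pathway, tagged with mannose 6-phosphate and carried to the lysosome by receptors, while heavily glycosylated membrane proteins such as Lamp1 line its inner face. In macrophages the compartment digests phagocytosed cells and microbes, and cathepsins also trim antigens and the invariant chain for presentation. Many of these genes carry a short E-box-like element near the start of transcription, the CLEAR element, which is bound by TFEB and its relatives, so that the set can be induced together when the lysosome is under load.

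The cells were macrophages and inflammatory monocytes (Ly6C+) isolated by sorting from mouse bone marrow, profiled on 19 Affymetrix gene arrays of the type MoGene 2.0 ST. There were 5 arrays of macrophages from marrow with metastasis, 5 of macrophages from healthy marrow, 4 of monocytes from marrow with metastasis and 5 of monocytes from healthy marrow. The metastases were those of MetBo2, a clone of the Met-1 mammary tumour line selected for homing to bone and derived from a PyMT tumour, and 100000 of its cells were given by intracardiac injection to female mice aged 4 weeks. For the healthy mice the age, any injection and the processing day were not given in the sources used here, nor was the strain of any mouse, so effects of these and of the metastases cannot be told apart. Whether arrays of 1 group stem from different mice is not stated by the labels, and p-values therefore measure the spread between these samples, which may be technical.

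Values were log2 expression levels as deposited, running from 1.38 to 12.6, with array medians between 4.45 and 4.55. Any pair of arrays correlated at 0.961 to 0.994 across all genes, and no pair of arrays held identical values. Levels on an array depend on the probes of each gene, so a level is compared here only with that of the same gene in another group. The 4 Y-linked genes, not expressed in female mice, read 2.12 to 2.87 on all arrays, and the lowest group mean of any lysosomal gene was 4.96. On the line over all genes that joins the healthy macrophage mean (0) to the metastasis macrophage mean (1), each array being left out of its own mean, replicate 2 of the metastasis macrophages stood at 0.503 and the other metastasis arrays at 0.742 to 0.806, and replicate 5 of the healthy macrophages stood at 0.574 and the other healthy arrays at 0.198 to 0.334. This pair of in-between arrays stands apart from its groups, and values without it are given beside the lysosomal results that it changes. The pair was picked on this same macrophage contrast, so leaving it out widens the contrast by construction. Values without it are no separate support for a change.

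The sorts were checked against marker lists. The macrophage list was divided, with 6 of 12 genes (among them Vcam1, Spic and C1qb) higher and 2 lower in healthy macrophages than in healthy monocytes, by limma with Benjamini-Hochberg adjustment over all genes. The 2 lower genes were defining ones: Adgre1, the gene of a classical surface marker of macrophages, averaged 7.34 in healthy macrophages and 7.96 in healthy monocytes, and Csf1r averaged 9.45 and 9.95 in these groups. Cd5l read 2.62 in metastasis macrophages and 2.70 in healthy macrophages, within the range of the Y-linked genes. The neutrophil list was 6 genes higher and 3 lower of 10, and Ltf, a granule protein of neutrophils, averaged 12.31 in healthy macrophages against 7.40 in healthy monocytes. Over the arrays the mean of that list ran from 10.16 to 10.45 in metastasis macrophages and from 9.44 to 10.07 in healthy macrophages, against 8.07 to 8.62 in metastasis monocytes and 8.20 to 8.87 in healthy monocytes. All 10 B and plasma cell markers and 5 of 7 T and NK cell markers were also higher in healthy macrophages than in healthy monocytes. So were 4 of 7 dendritic cell, 3 of 6 erythroid and 5 of 9 osteoclast markers, with 0 lower in these lists. Of 8 Ly6C-high monocyte markers 7 were lower and 1 higher in healthy macrophages. "Macrophages" below therefore means the population sorted under that label. In such bulk samples fewer cells of a type and less RNA per cell cannot be told apart, and the part of these other cells in the lysosomal results was not tested.

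**Figure D1:**
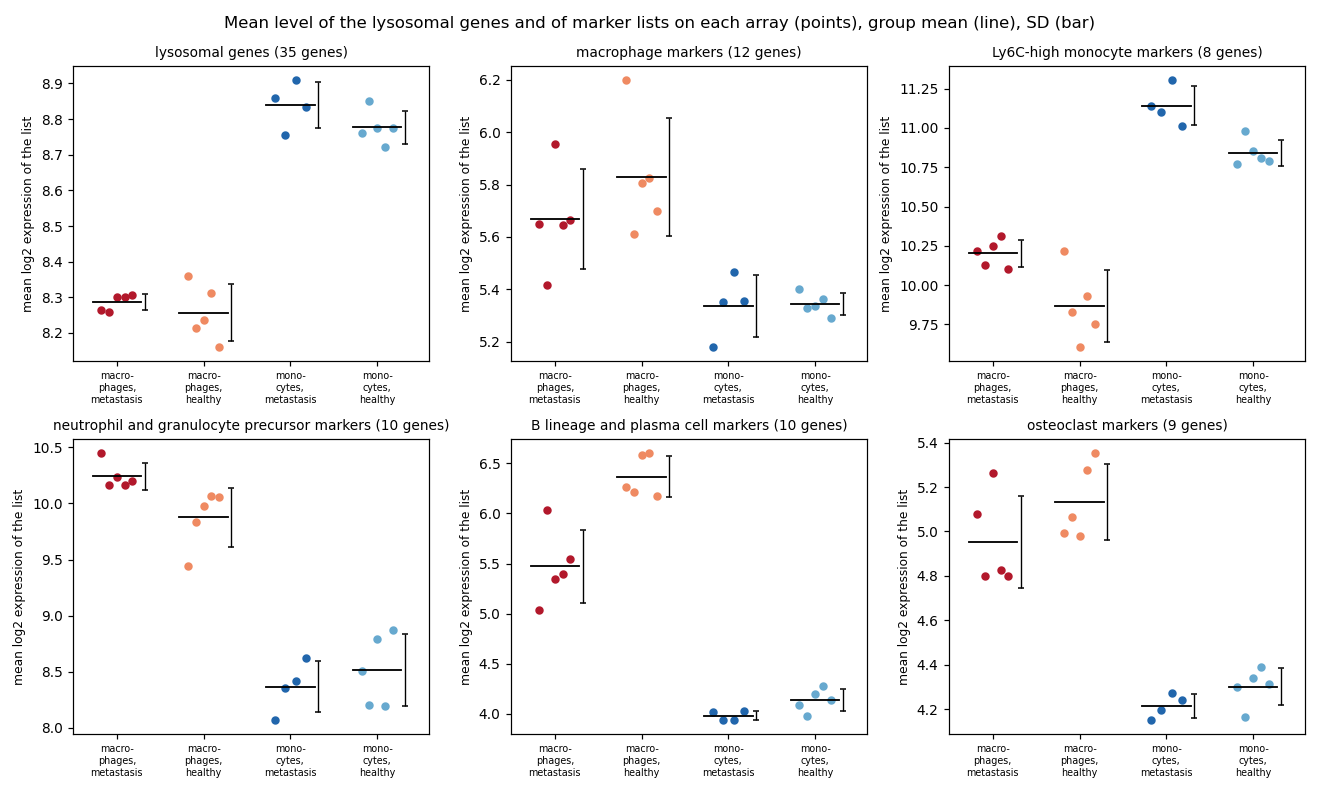
Mean log2 expression of the 35 lysosomal genes and of 5 lists of cell type markers on each array (points), with the group mean (line) and SD (bar). The neutrophil, B cell and osteoclast lists lie higher in both macrophage groups than in both monocyte groups, and the lysosomal genes lie lower, at 8.16 to 8.36 on the macrophage arrays against 8.72 to 8.91 on the monocyte arrays.

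Because the CLEAR element is known from many lysosomal genes, promoters of the measured genes were searched for it. Promoter windows of 300 bases, from 250 before to 50 after the start of transcription, came from RefSeq on GRCm38.p6 and were found for 32 of the 35 genes, some with more than 1 start (37 windows); Ctsb, Ctsh and Npc1 were not among them. The letters CACGTG, which read the same on both strands, were present in 11 of the 37 windows (29.7%), against 7.15% of all 32851 windows in the table. The longer TCACGTG, searched on both strands and always containing CACGTG, was present in 10 of the 37 windows (27.0%), against 3.77% of all windows. Its carriers were Ctsa, Ctsd, Lgmn, Gaa, Gla, Naglu, Arsa, Sgsh, Lamp1 and Mcoln1, and Ctsl had the shorter motif alone. These are matches of letters and not shown to be sites. The 250 bases before the start are printed for the 4 carriers with the largest difference between cell types in healthy marrow, and for Lamp1, chosen after its 4 matches were seen. Capitals mark CACGTG, and all sequences run 5′ to 3′ on the strand of the gene.
Naglu, chr11:101069844-101070093, plus strand: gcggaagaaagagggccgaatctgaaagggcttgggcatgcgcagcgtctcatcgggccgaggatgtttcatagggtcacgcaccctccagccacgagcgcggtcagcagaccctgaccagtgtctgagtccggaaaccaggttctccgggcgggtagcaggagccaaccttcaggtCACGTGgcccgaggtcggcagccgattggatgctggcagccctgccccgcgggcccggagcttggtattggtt
Gla, chrX:134601006-134601255, minus strand: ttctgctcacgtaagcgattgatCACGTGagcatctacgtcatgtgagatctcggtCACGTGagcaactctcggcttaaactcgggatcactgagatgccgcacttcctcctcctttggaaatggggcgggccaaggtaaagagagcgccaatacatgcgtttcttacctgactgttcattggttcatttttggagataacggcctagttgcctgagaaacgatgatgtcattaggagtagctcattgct
Gaa, chr11:119267713-119267962, plus strand: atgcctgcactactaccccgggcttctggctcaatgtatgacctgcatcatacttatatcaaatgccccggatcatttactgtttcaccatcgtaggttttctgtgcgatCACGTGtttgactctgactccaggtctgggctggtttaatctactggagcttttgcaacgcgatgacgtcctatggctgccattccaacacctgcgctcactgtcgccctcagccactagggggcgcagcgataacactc
Ctsa, chr2:164833523-164833772, plus strand: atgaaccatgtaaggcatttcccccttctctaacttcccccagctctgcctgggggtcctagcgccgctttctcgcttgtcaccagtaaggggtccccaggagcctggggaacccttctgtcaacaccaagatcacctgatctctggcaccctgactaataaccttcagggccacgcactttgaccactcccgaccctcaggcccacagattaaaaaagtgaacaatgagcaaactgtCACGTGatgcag
Lamp1, chr8:13158911-13159160, plus strand: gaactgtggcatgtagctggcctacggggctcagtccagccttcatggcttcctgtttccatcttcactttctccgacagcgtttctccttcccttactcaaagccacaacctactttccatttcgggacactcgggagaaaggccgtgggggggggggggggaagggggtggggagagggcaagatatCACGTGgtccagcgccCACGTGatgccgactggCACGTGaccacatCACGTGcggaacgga
In Lamp1 the 4 copies begin at positions -61, -45, -28 and -15 from the start of transcription. In healthy marrow the median log2 difference of macrophages minus monocytes was -0.63 over the 10 carriers, 7 of them called lower, and -0.59 over the 21 genes searched without a match, 13 of them called lower; Ctsl, with the shorter motif alone, differed by -0.90.

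The first question was how the lysosomal genes differ between the cell types. In healthy marrow 24 of the 35 genes were lower in macrophages than in monocytes, 1 (Neu1) was higher and 10 did not pass, at an adjusted p below 0.05 by limma over all 20998 genes. Among all genes 18.0% were called lower and 10.0% higher in this comparison. The median log2 difference was -0.59 over the lysosomal genes and -0.013 over all genes. In marrow with metastasis 27 of the 35 were lower, 1 (again Neu1) was higher and 7 did not pass, against 16.9% and 9.60% of all genes, with a median of -0.53 against 0.0053. A filter on dim genes kept 11005 genes, all 35 lysosomal genes among them. Of the 11005, 3892 were lower and 1850 higher in healthy marrow, with a median of -0.116. In metastasis 3760 of them were lower and 1804 higher, with a median of -0.114. The arrays of the cell types did not overlap for 25 lower genes and 1 higher gene, Neu1, in metastasis (15.2% and 9.03% of all genes) and for 23 lower genes in healthy marrow (13.7% of all genes). Arsa was the exception among the genes called lower in healthy marrow, and Lipa and Mcoln1 in metastasis.

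**Figure D2:**
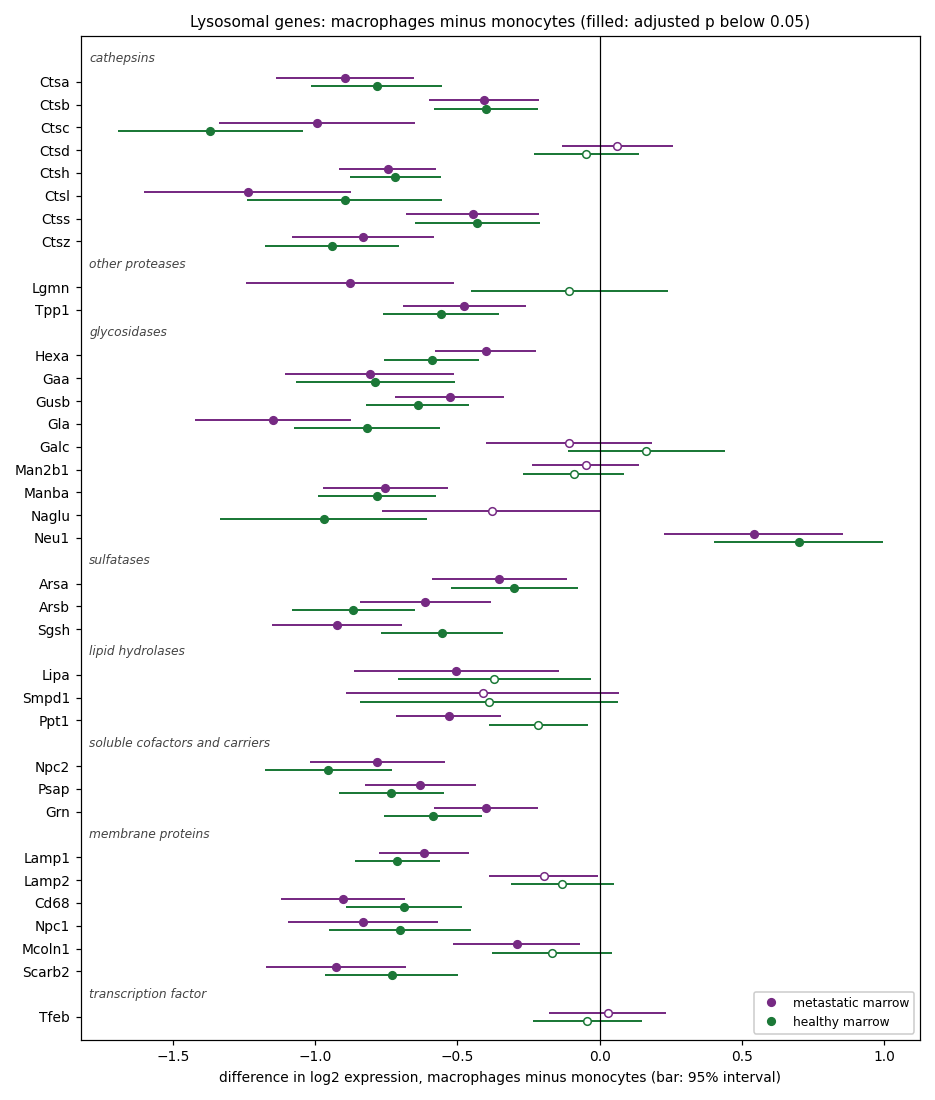
Difference in log2 expression, macrophages minus monocytes, of each lysosomal gene by class, in metastatic marrow (purple, upper) and healthy marrow (green, lower), with 95% intervals from limma. Filled points passed at an adjusted p below 0.05; nearly all lie left of 0, and Neu1 alone passed to the right of it, at 0.54 in metastasis and 0.70 in healthy marrow.

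Of the 8 cathepsins, the proteases that do most of the protein breakdown in lysosomes, 7 were lower in macrophages in each kind of marrow, and the aspartic protease Ctsd did not pass in either. Ctsh, an aminopeptidase, read 8.56, 8.47, 8.51, 8.41 and 8.23 on the metastasis macrophage arrays and 8.59, 8.51, 8.56, 8.47 and 8.49 on the healthy macrophage arrays. It read 9.19, 9.06, 9.27 and 9.20 on the metastasis monocyte arrays and 9.24, 9.27, 9.18, 9.19 and 9.34 on the healthy monocyte arrays. All macrophage arrays lay below all monocyte arrays. The log2 difference was -0.75 ± 0.080 (SE) in metastasis, with a limma adjusted p of 2.45e-07, and -0.72 ± 0.076 in healthy marrow, with 1.49e-07.

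Among the other cathepsins that passed, differences ran from -1.24 (Ctsl) to -0.41 (Ctsb) in metastasis and from -1.37 (Ctsc) to -0.40 (Ctsb) in healthy marrow. Ctsc, which activates the serine proteases of neutrophil and lymphocyte granules, averaged 8.94 ± 0.46 in healthy macrophages and 10.31 ± 0.16 in healthy monocytes (SD, n = 5 each), a level 0.39 times that of monocytes. Ctsl, a broad endopeptidase, averaged 6.86 ± 0.42 in metastasis macrophages (n = 5) and 8.10 ± 0.27 in metastasis monocytes (n = 4). Ctss, which cleaves the invariant chain in antigen-presenting cells, differed less, by -0.45 in metastasis and -0.43 in healthy marrow. Ctsa, a carboxypeptidase that also shields Neu1 from degradation, differed by -0.90 and -0.78 in these comparisons, and the carboxypeptidase Ctsz by -0.83 and -0.94. For Ctsd the 95% intervals of the difference ran from -0.13 to 0.25 in metastasis and from -0.23 to 0.13 in healthy marrow.

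The other proteases were Tpp1, which removes tripeptides from the ends of proteins, and Lgmn, which cuts after asparagine and matures several cathepsins. Tpp1 read 8.23, 8.62, 8.40, 8.61 and 8.48 in metastasis macrophages and 8.15, 8.28, 8.42, 8.58 and 8.19 in healthy macrophages. In monocytes it read 9.00, 8.74, 9.09 and 8.94 with metastasis and 8.83, 8.96, 8.85, 8.91 and 8.86 in healthy marrow. Every macrophage array lay below every monocyte array, by -0.48 ± 0.10 (SE) in metastasis (limma adjusted p = 0.00102) and -0.56 ± 0.10 in healthy marrow (9.04e-05). Lgmn passed as lower in macrophages with metastasis, by -0.88 (adjusted p = 0.000464), against -0.11 in healthy marrow (0.71). The interaction, which is the test of that change, was -0.77 ± 0.24 (SE), with a limma adjusted p of 0.357.

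Of the 9 glycosidases, which strip sugars from glycoproteins, glycolipids and glycosaminoglycans, 5 were lower and 1 higher in macrophages in metastasis, and 6 were lower and 1 higher in healthy marrow. Manba, the β-mannosidase, read 5.91, 6.08, 5.68, 6.16 and 6.13 in metastasis macrophages and 6.08, 5.86, 5.85, 6.03 and 6.01 in healthy macrophages. It read 6.88, 6.63, 6.80 and 6.68 in metastasis monocytes and 6.70, 6.81, 6.93, 6.53 and 6.77 in healthy monocytes. The cell types again did not overlap, with differences of -0.75 ± 0.10 (SE) in metastasis (limma adjusted p = 7.46e-06) and -0.78 ± 0.10 in healthy marrow (1.73e-06). Gla, the α-galactosidase lost in Fabry disease, was 0.45 times the monocyte level in metastasis and 0.57 times in healthy marrow. Gaa, which digests glycogen, differed by -0.81 and -0.79, Gusb, the β-glucuronidase, by -0.53 and -0.64, and Hexa, a subunit of β-hexosaminidase, by -0.40 and -0.59, in metastasis and in healthy marrow in that order. Naglu, a heparan sulfate enzyme, passed in healthy marrow at -0.97 but not in metastasis at -0.38 (adjusted p = 0.148), and the interaction had a limma adjusted p of 0.57. Galc, which degrades galactosylceramide, and Man2b1, an α-mannosidase, passed in neither.

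Neu1, the lysosomal sialidase, was the gene that ran against the set, and was singled out after its values were seen. It read 7.65, 7.25, 7.61, 7.19 and 7.33 in metastasis macrophages and 7.38, 6.94, 7.47, 7.62 and 7.84 in healthy macrophages. It read 6.90, 6.65, 6.98 and 6.93 in metastasis monocytes and 6.65, 7.08, 6.86, 6.51 and 6.66 in healthy monocytes. With metastasis all macrophage arrays lay above all monocyte arrays, whereas in healthy marrow replicate 2 of the macrophages lay within the monocyte range. The log2 difference was 0.54 ± 0.15 (SE) in metastasis (limma adjusted p = 0.00845) and 0.70 ± 0.14 in healthy marrow (0.000506).

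All 3 sulfatases were lower in macrophages in both kinds of marrow. Arsb, which removes sulfate from dermatan and chondroitin sulfate, read 9.08, 9.36, 9.23, 9.07 and 9.16 in metastasis macrophages and 9.37, 8.98, 9.14, 9.47 and 9.36 in healthy macrophages. It read 9.82, 9.65, 9.59 and 10.10 in metastasis monocytes and 10.10, 10.10, 10.16, 10.07 and 10.22 in healthy monocytes. No macrophage array reached the monocyte range, and the differences were -0.61 ± 0.11 (SE) in metastasis (limma adjusted p = 0.000147) and -0.87 ± 0.10 in healthy marrow (8.06e-07). Sgsh, a heparan sulfatase, differed by -0.92 in metastasis and -0.55 in healthy marrow. Arsa, which degrades sulfatide, differed least, by -0.35 in metastasis (adjusted p = 0.0218) and -0.30 in healthy marrow (0.0368). Its healthy call was lost when any of 7 arrays was left out (macrophage replicates 2 to 5 and monocyte replicates 1 to 3), with adjusted p-values up to 0.0966, and its metastasis call without macrophage replicate 2 or 3 or monocyte replicate 2, with values up to 0.0757. Without the in-between pair of macrophage arrays neither passed, at 0.0610 in metastasis and 0.0712 in healthy marrow. With all arrays the healthy Arsa call was also lost after quantile normalization (limma adjusted p = 0.102). The same held in the fit of the 2 groups alone (0.0581) and with an intensity trend and robust prior (0.0531).

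Of the 3 lipid hydrolases 2 were called lower in metastasis and 0 passed in healthy marrow by limma, where 2 had an unadjusted p below 0.05, as had 36.1% of all genes. Ppt1, which removes palmitate from proteins, read 9.35, 9.41, 9.55, 9.52 and 9.58 in metastasis macrophages and 9.61, 9.45, 9.45, 9.65 and 9.42 in healthy macrophages. It read 10.03, 9.93, 10.13 and 9.97 in metastasis monocytes and 9.70, 9.94, 9.67, 9.60 and 9.74 in healthy monocytes. The groups were apart with metastasis, by -0.53 ± 0.087 (SE, limma adjusted p = 5.99e-05), and overlapped in healthy marrow, where the difference was -0.22 ± 0.082 (0.0558). That healthy difference passed when macrophage replicate 1 or 4 or monocyte replicate 4 was left out, at 0.0425, 0.0342 and 0.0391. With all arrays it passed with an intensity trend and robust prior (0.0200), array weights (0.0448), dim genes left out (0.0276) and equal array medians (0.0441). Lipa, the acid lipase for cholesteryl esters and triglycerides, was called at -0.50 in metastasis (limma adjusted p = 0.032). That call was lost without any of macrophage replicates 1, 4 and 5 and monocyte replicates 1, 3 and 4 (up to 0.0978). With all arrays it was lost after quantile normalization (0.0845). In healthy marrow Lipa differed by -0.37 (0.0971), and passed at 0.0479 without macrophage replicate 1 and at 0.0320 with array weights. Smpd1, the acid sphingomyelinase, had adjusted p-values of 0.22 in metastasis and 0.21 in healthy marrow, and macrophage replicate 2 of the metastasis group read 4.73, apart from the other metastasis macrophage arrays. Its healthy difference passed at 0.00156 with the pair of in-between macrophage arrays left out, and at 0.0316 in the fit of the 2 groups alone.

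All 3 soluble cofactors and carriers were lower in macrophages in both kinds of marrow. Npc2, which hands cholesterol to Npc1 in the lysosomal membrane, read 10.29, 9.83, 10.17, 10.44 and 10.12 in metastasis macrophages and 10.29, 10.22, 9.74, 10.01 and 10.07 in healthy macrophages. It read 10.99, 11.03, 10.95 and 10.84 in metastasis monocytes and 11.01, 10.97, 11.06, 11.01 and 11.05 in healthy monocytes. The lowest monocyte array stood above the highest macrophage array, and the differences were -0.78 ± 0.11 (SE) in metastasis (limma adjusted p = 1.13e-05) and -0.95 ± 0.11 in healthy marrow (3.06e-07). Psap, the precursor of the saposins that present sphingolipids to their hydrolases, differed by -0.63 and -0.73, and Grn, progranulin, by -0.40 and -0.59, in metastasis and healthy marrow.

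Among the 6 membrane proteins 5 were lower in macrophages in metastasis and 4 in healthy marrow. Lamp1, a main component of the membrane's inner glycoprotein coat, had the smallest adjusted p of the class in healthy marrow. It read 10.67, 10.54, 10.67, 10.73 and 10.62 in metastasis macrophages and 10.70, 10.57, 10.53, 10.69 and 10.47 in healthy macrophages. It read 11.30, 11.21, 11.30 and 11.25 in metastasis monocytes and 11.34, 11.31, 11.25, 11.31 and 11.31 in healthy monocytes. The cell types were apart on every array, by -0.62 ± 0.074 (SE) in metastasis (limma adjusted p = 1.18e-06) and -0.71 ± 0.070 in healthy marrow (5.28e-08), a level 0.61 times that of monocytes. Its homologue Lamp2, also the receptor of chaperone-mediated autophagy, passed in neither, at -0.20 (0.126) and -0.13 (0.3). Cd68, the glycoprotein used as a macrophage marker, was lower in the cells sorted as macrophages, averaging 9.92 ± 0.094 with metastasis (n = 5) and 10.15 ± 0.25 in healthy marrow (n = 5), against 10.82 ± 0.077 (n = 4) and 10.84 ± 0.048 (n = 5) in the monocytes of these marrows. Npc1, the cholesterol exporter, differed by -0.83 and -0.70, and Scarb2, the carrier of β-glucocerebrosidase to the lysosome, by -0.93 and -0.73. The calcium channel Mcoln1 was called at -0.29 in metastasis (limma adjusted p = 0.0439). That call was lost without any of macrophage replicates 1, 2 and 5 and monocyte replicates 1 to 4 (up to 0.133). It was also lost without the in-between pair (0.142). With all arrays it was lost after quantile normalization (-0.20, 0.211) and in the fit of the 2 groups alone (0.103).

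Tfeb, the transcription factor of the set, did not differ past the threshold between cell types. It read 4.89, 4.92, 4.96, 5.14 and 5.24 in metastasis macrophages, 4.91, 5.10, 5.30, 4.94 and 4.99 in healthy macrophages, 5.09, 4.92, 4.86 and 5.14 in metastasis monocytes and 5.07, 5.09, 5.06, 5.16 and 5.08 in healthy monocytes. All 4 groups overlapped. The 95% intervals of the difference between cell types ran from -0.17 to 0.23 in metastasis and from -0.23 to 0.15 in healthy marrow.

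**Figure D3:**
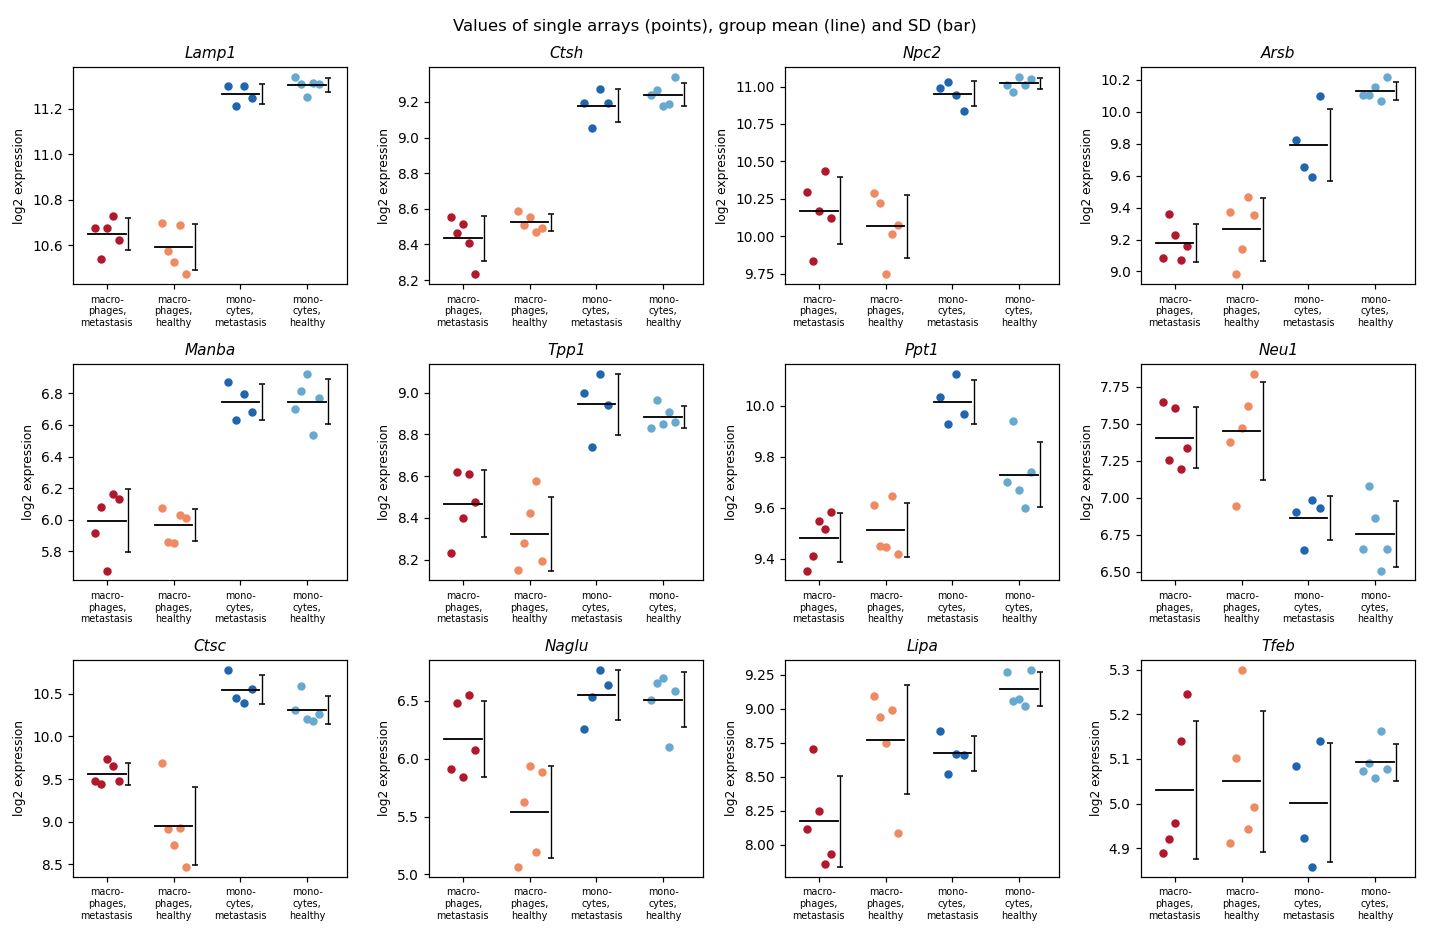
Log2 expression of 12 lysosomal genes on every array (points, 5, 5, 4 and 5 per group), with the group mean (line) and SD (bar); each panel has its own scale. Lamp1, Ctsh, Npc2, Arsb, Manba and Tpp1 are lower on all macrophage arrays than on all monocyte arrays, Neu1 is higher in macrophages, and Tfeb overlaps in all groups.

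A further 91 genes of lysosomal function, of 96 listed, were also compared. In macrophages relative to monocytes 8 were higher (8.79%) and 41 lower (45.1%) in metastasis, against 9.60% and 16.9% of all genes, and 12 were higher (13.2%) and 33 lower (36.3%) in healthy marrow, against 10.0% and 18.0% of all genes. Their medians were -0.26 and -0.17, and the shares called higher lay near those of all genes. After quantile normalization 14 of the 91 were higher and 34 lower in metastasis, and 17 were higher and 25 lower in healthy marrow. Over all 20998 genes that setting called 2239 higher and 2907 lower in metastasis, and 2395 higher and 3192 lower in healthy marrow. With the deposited values, 3760 of the 11005 genes kept by the filter on dim genes were lower and 1804 higher in metastasis. In healthy marrow 3892 of the 11005 were lower and 1850 higher. Other hydrolases were 3 higher and 12 lower of 25 in metastasis and 5 higher and 11 lower in healthy marrow. Naaa, which hydrolyses fatty acid ethanolamides, differed by -1.75 in healthy marrow, the sialate esterase Siae by -1.04 and the serine carboxypeptidase Scpep1 by -1.10. Other membrane proteins were 2 higher and 12 lower of 19 in metastasis and 3 higher and 9 lower in healthy marrow, with the nucleoside transporter Slc29a3 at -1.34, Tmem192 at -0.92 and the cation channel Tpcn2 at 0.77 in healthy marrow.

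The V-ATPase is the proton pump that acidifies the lumen. Of 15 subunits measured, 2 were higher (13.3%) and 4 lower (26.7%) in macrophages in metastasis, against 9.60% and 16.9% of all genes, and 3 of 15 were higher and 3 lower in healthy marrow, against 10.0% and 18.0% of all genes. With 15 genes these counts differ from the shares of all genes by few genes, and the medians were 0.011 and -0.018. In healthy marrow Atp6v1a, a catalytic subunit, differed by -0.47, Atp6v1d by 0.41 and Atp6v0d2, a subunit prominent in osteoclasts, by 0.88. Among 12 genes of sorting to the lysosome 1 was higher (8.33%) and 4 lower (33.3%) in each kind of marrow. The mannose 6-phosphate receptors moved in opposite directions: Igf2r, the cation-independent receptor, averaged 7.71 ± 0.34 in metastasis macrophages and 7.77 ± 0.40 in healthy macrophages, against 3.93 ± 0.15 in metastasis monocytes and 3.87 ± 0.20 in healthy monocytes. The difference in healthy marrow was 3.90, with a limma adjusted p of 6.96e-14, whereas M6pr, the cation-dependent receptor, differed by -0.66 (6.15e-05). Nagpa, which uncovers the mannose 6-phosphate tag, differed by -0.70.

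Of 16 genes of the TFEB family and nutrient sensing, 7 were lower (43.8%) and 0 higher in metastasis, against 16.9% and 9.60% of all genes. In healthy marrow 4 of the 16 were lower (25.0%) and 0 higher, against 18.0% and 10.0% of all genes. With 16 genes the healthy counts differ from these shares by few genes. After quantile normalization 5 of the 16 were lower and 2 higher in metastasis, and 2 were lower and 2 higher in healthy marrow. The counts over all genes in that setting are given above. While Tfeb itself did not pass, its relative Tfec averaged 7.25 ± 0.16 in metastasis macrophages and 6.75 ± 0.37 in healthy macrophages, against 9.05 ± 0.11 in metastasis monocytes and 8.91 ± 0.052 in healthy monocytes. Its difference in healthy marrow was -2.15 (limma adjusted p = 1.50e-11), that of Mitf -0.54, and that of Rptor, a component of the mTORC1 complex, -0.38. Of 4 cystatins, inhibitors of cysteine cathepsins, 2 were lower in both kinds of marrow. Among all genes 16.9% were lower in metastasis and 18.0% in healthy marrow. Cstb differed by -1.16 and Cst7 by -0.91 in healthy marrow.

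The second question was whether the lysosomal genes change with bone metastasis. In macrophages 0 of the 35 passed by limma, against 1.23% of all genes, and 5 (14.3%) had an unadjusted p below 0.05, against 13.6% of all genes. In monocytes 0 of the 35 passed, against 0.514% of all genes, and 10 (28.6%) had an unadjusted p below 0.05, against 7.58% of all genes. Of the 91 further lysosomal genes 0 passed by limma in either cell type, and 15 in macrophages and 5 in monocytes had an unadjusted p below 0.05. Without the in-between pair, which was picked on this contrast, macrophage calls over all genes rose from 259 to 726. Then 6 of the 91 further genes passed in macrophages. Among them Slc11a1, a metal transporter (-0.58, limma adjusted p = 0.00831), Ids, a sulfatase (-0.50, 0.0310), and Gm2a, the GM2 activator (-0.41, 0.0475), were lower with metastasis, and the chloride transporter Clcn7 (0.50, 0.0240) and Tfec (0.56, 0.0367) were higher. Among those that passed with a single array left out were Tfec without metastasis replicate 2 (0.55, adjusted p = 0.0439), Slc11a1 without healthy replicate 5 (-0.56, 0.00743), Naaa without healthy replicate 1 (0.63, 0.0136) and Tfec without healthy replicate 3 (0.60, 0.0178). With all arrays, the 95% interval of each gene's difference lay within 0.5 of 0 (log2) for 30 genes in macrophages and 27 in monocytes. It lay within 1, a 2-fold change, for all 35 in both. The intervals were not adjusted for the number of genes and hold for this fit alone. Without the in-between pair the Lipa difference in macrophages was -0.91.

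**Figure D4:**
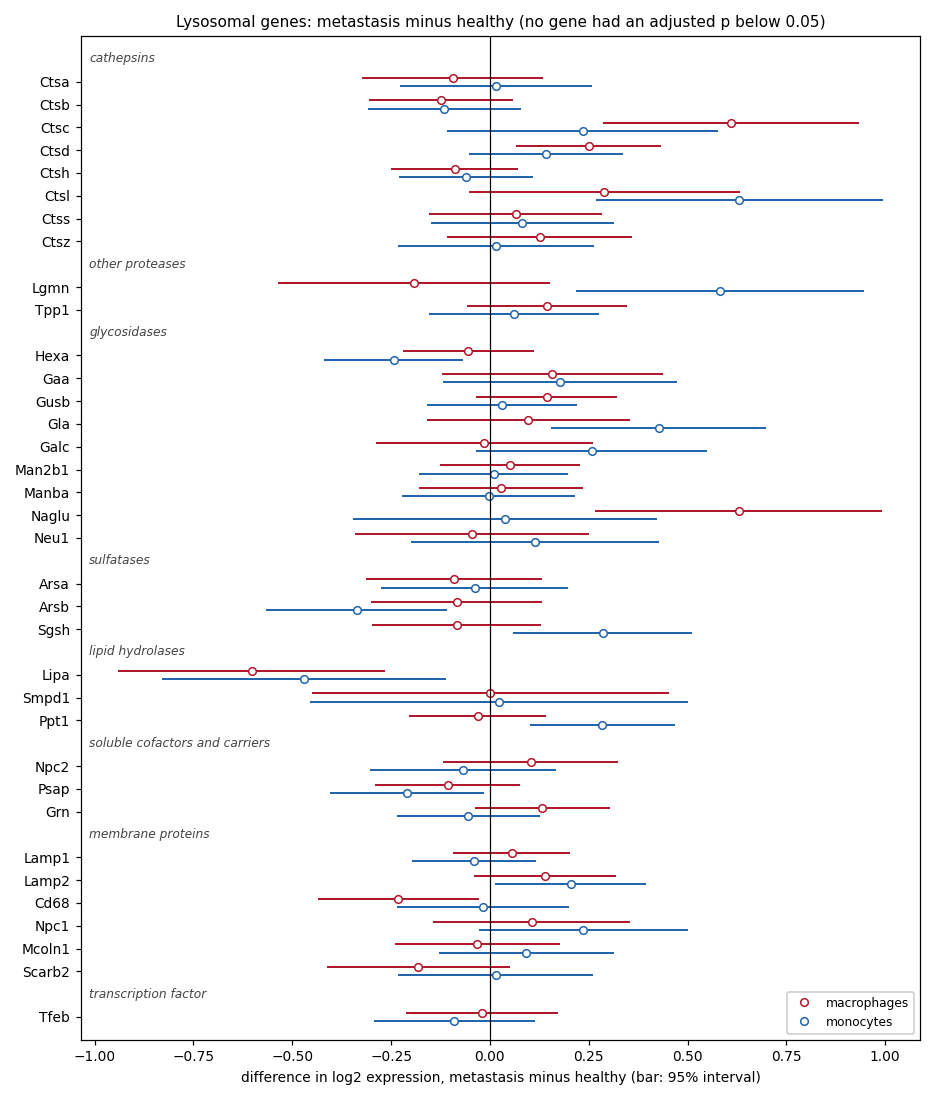
Difference in log2 expression, metastasis minus healthy, of each lysosomal gene in macrophages (red, upper) and monocytes (blue, lower), with 95% intervals from limma. No point passed at an adjusted p below 0.05; the widest departures are Ctsc, Naglu and Lipa in macrophages and Ctsl, Lgmn and Lipa in monocytes.

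The macrophage genes nearest to the threshold were Ctsc, Lipa and Naglu, named here after their values were seen. Ctsc read 9.47, 9.44, 9.73, 9.65 and 9.48 in metastasis macrophages and 9.69, 8.91, 8.72, 8.93 and 8.47 in healthy macrophages. All metastasis arrays exceeded 4 of the healthy arrays, and healthy replicate 1 lay within the metastasis range. The difference was 0.61 ± 0.15 (SE), with a limma adjusted p of 0.0526. It passed at 6.7e-04 with a difference of 0.80 when healthy replicate 1 was left out. That array held the highest healthy value, so leaving it out widens the difference by construction and is no separate support. Several marker lists also differed between these groups. The macrophage list ran from 5.42 to 5.95 over the metastasis arrays, against 5.61 to 6.20 over the healthy arrays, with 2 of 12 genes called lower. The neutrophil list ran from 10.16 to 10.45 over the metastasis arrays, against 9.44 to 10.07 over the healthy arrays, with 1 of 10 genes called higher, and healthy replicate 1 was its lowest array. The Ly6C-high monocyte list ran from 10.10 to 10.32 over the metastasis arrays, against 9.60 to 10.21 over the healthy arrays, with 1 of 8 genes called higher, and healthy replicate 1, the array with the healthy group's highest Ctsc, was its highest healthy array. The B and plasma cell list ran from 5.04 to 6.03 over the metastasis arrays, against 6.18 to 6.61 over the healthy arrays, with 5 of 10 genes called lower. Called lower was 1 of 6 erythroid, 1 of 7 dendritic cell and 1 of 9 osteoclast markers, and 1 of 7 T and NK cell markers was higher. Among all genes 0.638% were called higher and 0.595% lower in this comparison. The part of these marker lists in the macrophage values was not tested.

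Lipa read 8.11, 8.70, 8.25, 7.86 and 7.93 in metastasis macrophages and 9.09, 8.94, 8.75, 8.99 and 8.09 in healthy macrophages. The metastasis arrays read below the healthy arrays except for the in-between pair, metastasis replicate 2 and healthy replicate 5, which each lay in the range of the other group. The difference was -0.60 ± 0.16 (SE, limma adjusted p = 0.0686). It passed without healthy replicate 5 (-0.77, adjusted p = 0.00274), without metastasis replicate 2 (-0.74, 0.0140) and without both (-0.91, 5.4e-05). Both arrays were picked on this same contrast. Naglu read 5.91, 6.48, 5.84, 6.55 and 6.07 in metastasis macrophages and 5.07, 5.62, 5.93, 5.19 and 5.89 in healthy macrophages, which overlapped. Its difference was 0.63 ± 0.17 (SE, limma adjusted p = 0.0765), and it passed at 0.0343 with a difference of 0.72 without healthy replicate 5. Ctsd was the 1 gene whose macrophage groups did not overlap (1.93% of all genes in either direction), at 10.36, 10.53, 10.34, 10.34 and 10.36 with metastasis and 10.00, 10.02, 10.15, 10.25 and 10.26 in healthy marrow, a difference of 0.25 (adjusted p = 0.18). Smpd1 differed by 0.00074 ± 0.22 (SE, adjusted p = 0.999), against 0.40 (0.0561) without the in-between pair.

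In monocytes the groups did not overlap for 5 of the 35 genes higher with metastasis (Ctsl, Ctss, Lgmn, Gla and Lamp2), against 2.96% of all genes, and for 4 lower (Hexa, Lipa, Psap and Grn), against 2.45% of all genes, and none of these passed. Ctsl read 7.96, 7.96, 8.51 and 7.96 in metastasis monocytes and 7.34, 7.58, 7.51, 7.39 and 7.52 in healthy monocytes, a difference of 0.63 ± 0.17 (SE, limma adjusted p = 0.143). Lgmn read 7.59, 7.72, 7.84 and 7.60 in metastasis monocytes and 7.28, 7.07, 7.09, 7.09 and 6.995 in healthy monocytes, a difference of 0.58 ± 0.17 (0.204). Gla read 7.31, 7.56, 7.56 and 7.28 in metastasis monocytes and 6.92, 7.21, 6.99, 6.76 and 7.12 in healthy monocytes, a difference of 0.43 ± 0.13 (0.214). In each of these every metastasis array lay above every healthy array. Ctsl, Lgmn, Gla and, below, Lipa were singled out on this same contrast.

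Lipa, in the other direction, read 8.84, 8.52, 8.67 and 8.66 in metastasis monocytes and 9.27, 9.06, 9.07, 9.02 and 9.29 in healthy monocytes, with all metastasis arrays below and a difference of -0.47 ± 0.17 (SE, limma adjusted p = 0.399). When the monocyte groups were fitted alone, Ctsl (0.0213), Lgmn (0.00596) and Lipa (0.0271) passed. Ppt1 differed by 0.28 (0.223), Arsb by -0.34 (0.271) and Sgsh by 0.29 (0.435), with groups that overlapped. The mean of the Ly6C-high monocyte list ran from 11.01 to 11.31 in metastasis monocytes and from 10.77 to 10.98 in healthy monocytes. Of its 8 genes 1 was called higher, with a median difference of 0.11 and a highest of 1.33. Of 9 osteoclast-list genes 1 passed as higher, Acp5, tartrate-resistant acid phosphatase, at 0.51 (limma adjusted p = 0.0301). Itgb3 passed as lower, at -1.08 (0.000242), and the median over that list was -0.0018. Of 7 dendritic cell markers 1 was called lower. Among all genes 0.395% were called higher and 0.119% lower. The part of these marker lists in the lysosomal values was not tested.

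The interaction tests whether the change with metastasis differs between macrophages and monocytes. By limma 0 of the 35 passed, against 0.0619% of all genes, and 4 had an unadjusted p below 0.05 (7.87% of all genes). They were Lgmn at -0.77 (adjusted p = 0.357), Ppt1 at -0.32 (0.508), Sgsh at -0.37 (0.533) and Naglu at 0.59 (0.57). For Lipa, whose mean was lower with metastasis in both cell types, the interaction was -0.13, with a 95% interval of -0.62 to 0.36. Without the in-between pair it was -0.44, with a limma adjusted p of 0.291, and that of Smpd1 was 0.37 (0.416), against -0.022 (0.996) with all arrays.

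**Figure D5:**
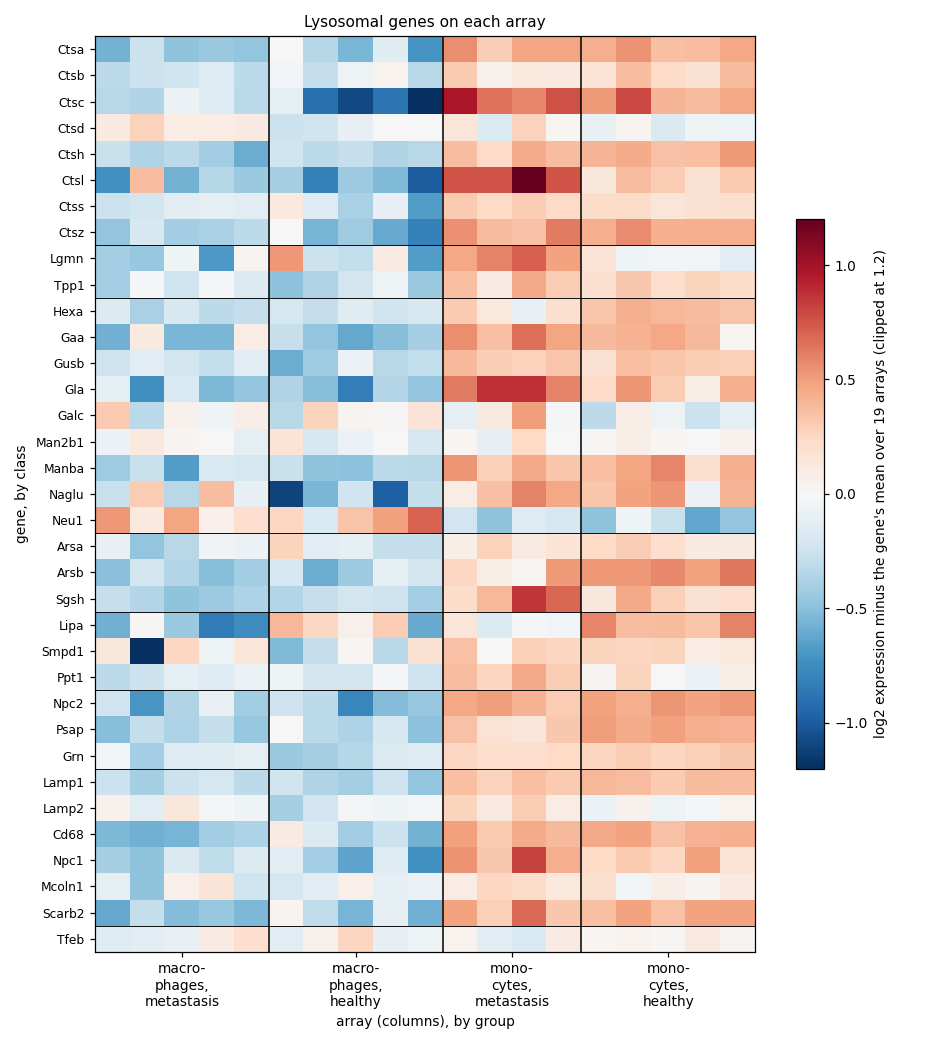
Log2 expression of the 35 lysosomal genes (rows, by class) on the 19 arrays (columns, by group), each gene centred on its mean over all arrays and colours clipped at 1.2. The split between macrophages (left) and monocytes (right) runs through most rows, Neu1 is reversed, and Ctsd, Galc, Man2b1 and Tfeb show little of it.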

How the data were processed

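Gene expression was measured in sorted bone marrow macrophages and monocytes on 19 Affymetrix arrays. The authors deposited log2 expression values, 1 per gene symbol and array, and the log2 scale was judged from the range of the values. The oligo package is named in the submitters' processing notes; its version, the background correction, the normalization, the genome build and the rule from probe sets to genes were not given in the sources used here. Values were used as deposited. Means of the 4 groups were fitted together in R 4.3.3 by the lmFit and eBayes functions of limma 3.58.1, with 5 contrasts, and two-sided p-values were adjusted by Benjamini-Hochberg over all 20998 genes, with calls at 0.05. The fit was tested on simulated data. Genes were described in full where they had the smallest adjusted p of their class in healthy marrow, and Tfeb always. Neu1, Ctsc, Lipa, Naglu, Ctsd, Ctsl, Lgmn and Gla were described outside that rule, chosen on their values. Further lysosomal genes were named, up to 3 a list, by the smallest adjusted p in healthy marrow. Slc11a1, Ids, Gm2a and Clcn7 were named because they passed in macrophages with arrays left out. The members, lists and tests were chosen with earlier results of these data known. Alternatives were a separate fit for the 2 groups of a comparison, an intensity trend with a robust prior, array weights, a filter that kept 11005 genes, quantile normalization, equal array medians, a minimum change of 1.5-fold, and omission of single arrays. A fit without the pair of in-between macrophage arrays was added after seeing the data. The number of arrays limits the precision. The labels pair no arrays. A gene among the further lysosomal genes is not reported here.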

Additional observations from a re-analysis of the deposited data

Results flagged for a closer look

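Each gene was searched in each group for an array far from the others, by the gap to its nearest neighbour over the range of the group (Dixon's 95% critical value). This flagged 5 of 140 gene and group combinations, and chance flags about 1 in 20. Macrophages with metastasis, replicate 2, stood apart for 2 genes, with Ctsd highest at 10.53 (next 10.36) and Smpd1 lowest at 4.73 (next 6.07). Ctsl was highest at 8.51 on replicate 3 of the metastasis monocytes (next 7.96). Ctsz was highest at 9.84 on replicate 2 of the healthy monocytes (next 9.71), and Gaa was lowest at 5.91 on replicate 5 of the healthy monocytes (next 6.28).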

How the results depend on the processing

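No result changed sign where it was called. The counts of lysosomal genes called between macrophages and monocytes ran from 26 to 28 in metastasis and 24 to 27 in healthy marrow over the alternatives, except at a 1.5-fold threshold, which left 17 of 28 and 20 of 25. With each array left out in turn they ran from 26 to 27 and from 24 to 27. Outside the fold threshold, 25 of the 28 and 24 of the 25 calls held in every alternative; the calls lost were those of Arsa in both, and of Lipa and Mcoln1 in metastasis. For metastasis against healthy in macrophages, where 0 passed, 1 gene passed with an intensity trend and robust prior, 1 with array weights (Ctsc in both), 2 with dim genes left out (Ctsc and Lipa) and 1 without the in-between pair (Lipa), and 0 to 2 with each array left out in turn. Of the 91 further lysosomal genes, where 0 passed, 6 passed without the in-between pair, 1 each with the intensity trend, with dim genes left out and with quantile normalization (Tfec in all 3), and 0 to 2 with each array left out in turn. In monocytes 3 passed in the fit of the 2 groups alone (Ctsl, Lgmn and Lipa) and 2 with array weights (Ctsl and Lgmn), and 0 with any array left out. The interaction called 0 throughout. The cause of these changes was not tested. Over all genes, the calls with metastasis ran from 65 to 726 in macrophages (259 as reported) and from 61 to 328 in monocytes (108 as reported), and with equal array medians those in macrophages were 96 higher and 145 lower, against 134 and 125. Those between cell types fell at 1.5-fold to 2683 of 5563 in metastasis and 2693 of 5886 in healthy marrow. No paired analysis was possible because the labels give no shared replicate numbers and pair no arrays.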
